A study of Rattus norvegicus with 12 samples.

Results

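The growth hormone and insulin-like growth factor (GH and IGF) axis was followed in rat liver through 9 transcripts, chosen by gene symbol from a table of 40154 genes. These were Igf1, Ghr, Stat5b, Socs2, Igfals, Igfbp1, Igfbp2, Igfbp3 and Igfbp4, and all 9 were among the 15916 genes with enough reads to be tested. RNA was sequenced from livers of Sprague Dawley rats in 4 groups of 3 libraries. HFD+SAMC rats received a high fat diet with S-allylmercaptocysteine, an organosulfur compound of aged garlic, and HFD rats received the high fat diet. Control+SAMC rats received a normal diet with the same compound, and Control rats received the normal diet. HFD replicates carry the numbers 2, 3 and 4, whereas replicates of each other group carry 1, 2 and 3. Dose, duration, age and sex are not in the labels, nor is it said that each library came from its own animal. The p-values therefore measure sample-to-sample spread, part of which may be technical.

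Growth hormone from the pituitary binds its receptor on hepatocytes and activates the kinase JAK2, which phosphorylates the transcription factor STAT5B. STAT5B drives transcription of Igf1 and Igfals, which make the circulating growth factor and the subunit that holds it in a large plasma complex, and of Socs2, which feeds back on the receptor. The IGF binding proteins carry the growth factor and set how much of it reaches its receptor. Liver Igf1 depends on nutrition as well as on growth hormone, and Igfbp1 and Igfbp2 are known as genes that insulin holds down.

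Libraries held 45680738 to 61937544 counts. The values below are CPM, counts scaled to a common library size after TMM (trimmed mean of M-values) adjustment, unless RPKM, which also divides by gene length, is named. Hepatocyte transcripts made up much of every library (summed markers, 122600 to 360200 CPM). Fibrinogen alpha chain (Fga), an acute phase transcript of hepatocytes, split the libraries into 4 with 3378 to 3822 CPM and 8 with 8221 to 18523 CPM. The 4 low libraries were HFD replicates 2 and 3, Control+SAMC replicate 1 and Control replicate 2. Values given below without these 4 have HFD replicate 4 as the only HFD library, whose variance is assumed to be that of the other groups. The library of HFD+SAMC replicate 3 held skeletal muscle transcripts, whose 6 markers summed to 802 CPM against 0.783 CPM or less in every other library. The deposited RPKM of 1 gene, RGD1562465, implied a length of 3377 bp in the HFD+SAMC and Control libraries and 4432 bp in the HFD and Control+SAMC libraries, so the libraries fall into 2 sets by this value. HFD+SAMC against Control and HFD against Control+SAMC each lie within a set, effects averaged over diet or SAMC are balanced over the sets, and in the other comparisons of 2 groups the set and the group cannot be told apart. The interaction of diet and SAMC sets the HFD+SAMC and Control libraries against the HFD and Control+SAMC libraries, so it cannot be told apart from the set either.

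Igfbp4 was by far the most abundant of the 9 transcripts per length, with a mean of 942 RPKM over the 12 libraries. Igf1 followed with 138 RPKM, Igfals with 137 RPKM and Ghr with 110 RPKM. The other 5 were lower, with Igfbp2 at 31.1 RPKM, Socs2 at 26.9 RPKM, Igfbp1 at 21.9 RPKM, Stat5b at 17.7 RPKM and Igfbp3 at 14.8 RPKM. Of the summed RPKM of Igfbp1 to Igfbp6, Igfbp4 made up 85.2% to 97.1%, with a median of 94.6%. Igfbp3, which carries most circulating IGF1 with the acid labile subunit encoded by Igfals, made up 1.02% to 2.01%. Igf2, the other IGF ligand, had a median of 0.146 RPKM and Igf1r, the IGF1 receptor gene, of 0.236 RPKM, and no read was counted for Gh1, the pituitary growth hormone gene, in any library. Other receptor genes were well above these, with medians of 138 RPKM for Prlr, 16.2 RPKM for Insr and 10.03 RPKM for Igf2r. In bulk tissue, fewer cells of a type and less RNA per cell cannot be told apart.

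**Figure D1:**
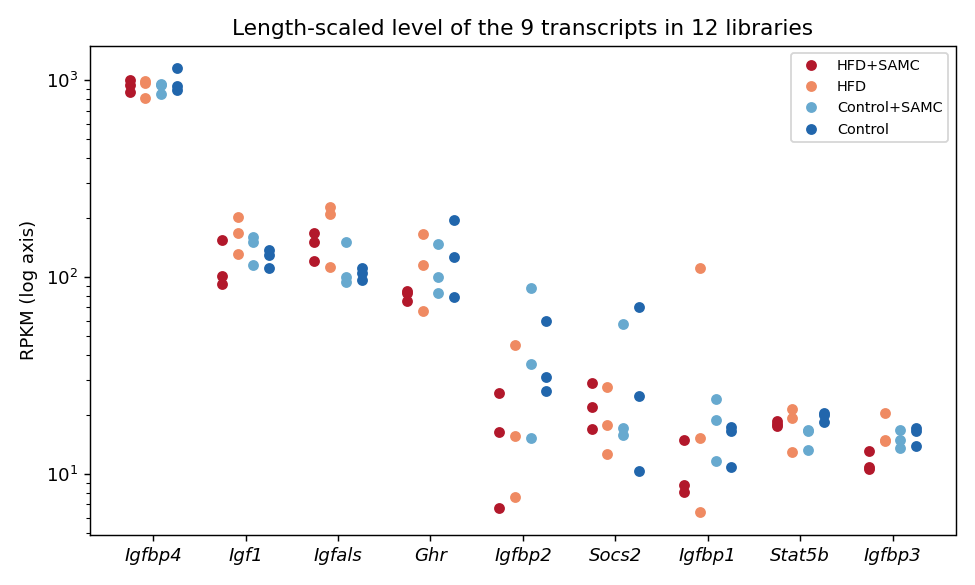
Level per gene length (RPKM, log axis) of each of the 9 transcripts in the 12 libraries, with 1 point per library and groups in colour. Igfbp4 lies above the other 8 in every library, and Igfbp1 and Igfbp2 have the widest spread between libraries.

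The transcripts also differed in how much they varied from library to library. Between the lowest and the highest of the 12 libraries, Igfbp1 in CPM spanned 19.7-fold, Igfbp2 15.6-fold, Socs2 6.03-fold and Ghr 3.81-fold, whereas the median gene tested spanned 2.20-fold. The span of Igfbp1 rested on HFD replicate 4 at 160.3 CPM, as the next highest library, Control+SAMC replicate 2, had 39.8 CPM. The within-group SD on the log2 scale was larger than that of 96.5% of tested genes for Igfbp1, 95.2% for Igfbp2 and 90.4% for Socs2. HFD replicate 4 is included in the SD of Igfbp1. Igfbp4 was at the other end, with a within-group SD larger than that of 9.09% of genes. Of 27 steps between neighbouring group means of the 9 transcripts, 5 were larger than the SD within groups. These were the steps from HFD+SAMC up to the next group for Igf1 and Igfbp3, and from Control down to the next group for Igfbp3, Igfbp4 and Stat5b.

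**Figure D2:**
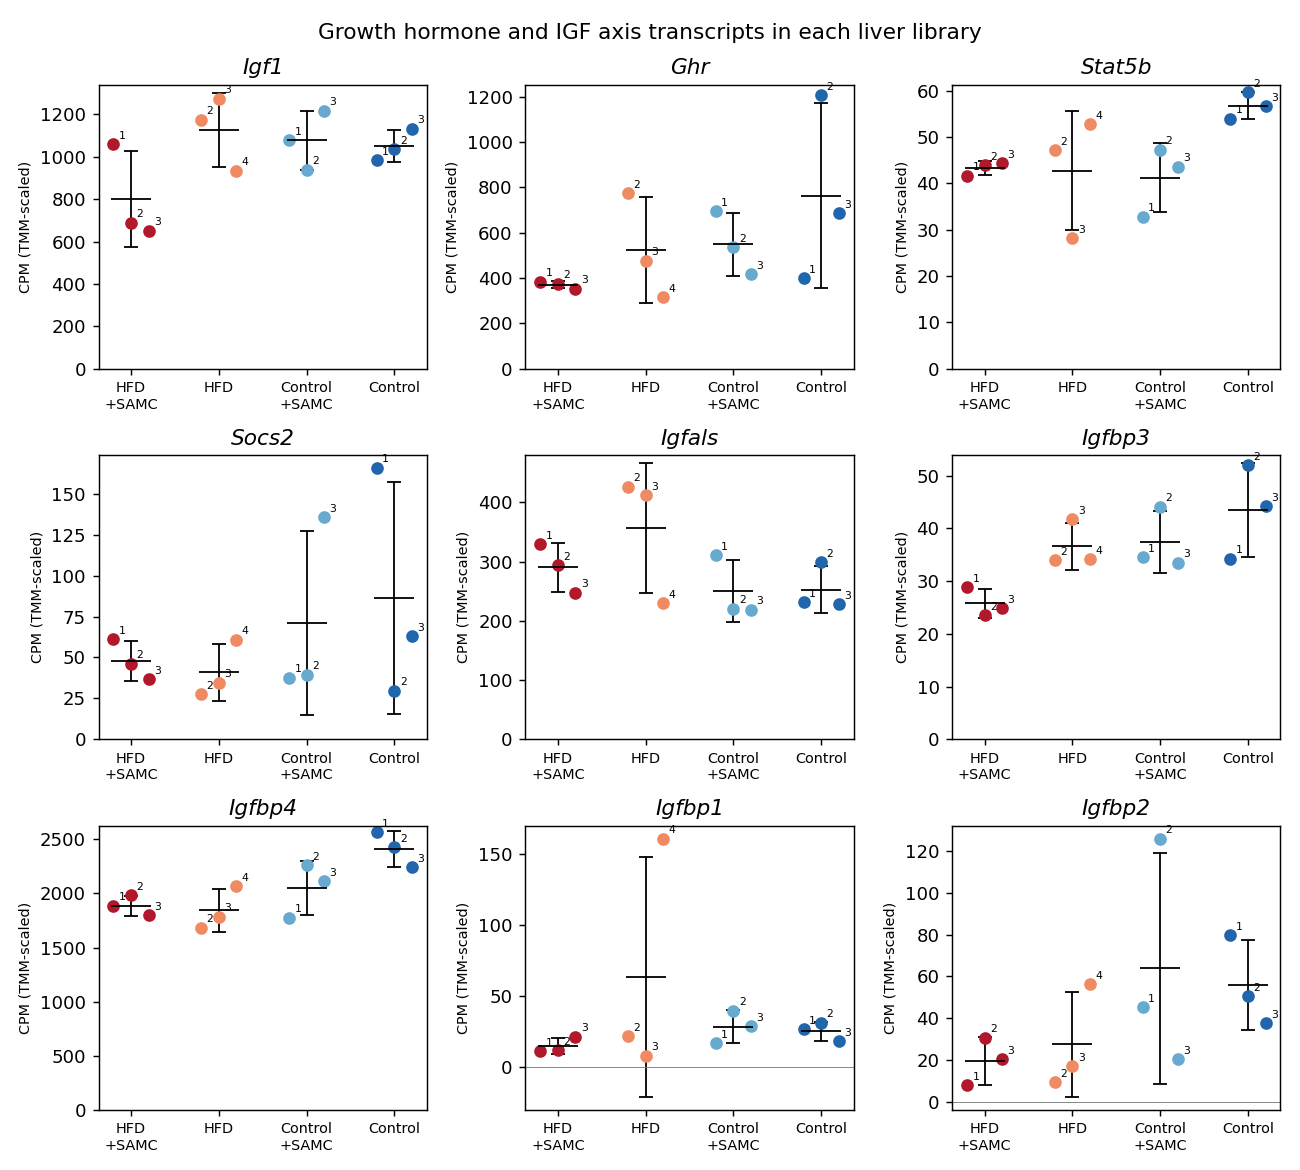
CPM of the 9 transcripts (vertical axes from 0, or lower where an error bar reaches below 0) in the groups HFD+SAMC, HFD, Control+SAMC and Control, with replicate numbers beside the points and the mean ± SD of 3 libraries in black. Igfbp3 is lowest in the 3 HFD+SAMC libraries, Stat5b is highest in the 3 Control libraries, and Igfbp1 has 1 HFD library at 160.3 CPM.

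None of the 9 transcripts passed the threshold (edgeR quasi-likelihood test, Benjamini-Hochberg adjusted p under 0.05 over all 15916 genes) in any of the 9 contrasts. Few genes of any kind passed it: 0.176% of genes in HFD+SAMC against Control, 0.0503% in HFD+SAMC against HFD, 0.0628% in HFD+SAMC against Control+SAMC, 0.145% in HFD against Control, 0.364% in HFD against Control+SAMC and 0.119% in Control+SAMC against Control. The share was 0.421% for diet averaged over SAMC, 0.22% for SAMC averaged over diet and 0.145% for the interaction of diet and SAMC. The smallest adjusted p of any of the 9 transcripts was 0.102, for Igfbp3 in HFD+SAMC against Control.

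Unadjusted p-values under 0.05 were as follows. In HFD+SAMC against Control, 3 of 9 transcripts (Ghr, Igfbp3 and Igfbp4) were under 0.05, beside 12.6% of all genes, and in HFD+SAMC against HFD 3 of 9 (Igf1, Igfbp1 and Igfbp3) beside 10.6%. For diet averaged over SAMC, 3 of 9 (Igfbp2, Igfbp3 and Igfbp4) were under 0.05, beside 13.6%. Igfbp3 alone was under it in HFD+SAMC against Control+SAMC (10.9% of genes) and for SAMC averaged over diet (12.4%). Igfbp4 alone was under it in HFD against Control (10.7%), and Stat5b alone in Control+SAMC against Control (9.78%). None was under it in HFD against Control+SAMC (13% of genes) or for the interaction (7.41%), which is confounded with the set.

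The libraries of the 2 groups did not overlap for 5 of 9 transcripts in HFD+SAMC against Control (Ghr, Igfbp2, Igfbp3, Igfbp4 and Stat5b), all lower in HFD+SAMC, and for 19.7% of all genes. They did not overlap for 1 transcript in HFD+SAMC against HFD (18.8% of genes), 2 in HFD+SAMC against Control+SAMC (17.8%), 2 in HFD against Control (14.7%), 0 in HFD against Control+SAMC (17.1%) and 1 in Control+SAMC against Control (13.5%). For 2 transcripts, 1 group stood apart from all 9 other libraries. Igfbp3 was lower in every HFD+SAMC library than in any other, a pattern in which HFD+SAMC stood apart for 2.56% of all genes in either direction. Stat5b was higher in every Control library than in any other, and Control stood apart for 2.07% of genes. No member had HFD apart (2.26% of genes) or Control+SAMC apart (2.1%). These counts rest on TMM scaling. In RPKM, which uses library totals, Stat5b was 21.3 in HFD replicate 4 against 18.4 to 20.3 in Control. HFD+SAMC replicate 2, at 18.6 RPKM, also overlapped with Control for Stat5b. Ghr then overlapped between HFD+SAMC (up to 84.9 RPKM) and Control (from 78.9 RPKM). So did Igfbp4 (up to 996 and from 893 RPKM), while Igfbp2 and Igfbp3 stayed apart.

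In HFD+SAMC against Control, the fitted log2 fold change was below 0 for 8 of 9 transcripts with a median of -0.75, while the median of all genes was near 0 and 49.7% of genes were above 0. For SAMC averaged over diet it was below 0 for 9 of 9, from -0.96 to -0.03 with a median of -0.22, while 49.2% of all genes were above 0. Across the other scalings, fits and left-out libraries, the number below 0 ran from 7 to 8 in the contrast of HFD+SAMC and Control. It ran from 6 to 9 for averaged SAMC, with 6 when HFD replicate 4 was left out, 7 without the 4 libraries low in Fga, and 8 when only library totals were used for scaling. For diet averaged over SAMC it was 7 of 9 with a median of -0.25, and 5 of 9 when only library totals were used. In HFD against Control+SAMC, the other comparison within a set, it was 5 of 9 with a median of -0.03. There it was 2 of 9 with library totals. It was 7 of 9 in HFD+SAMC against Control+SAMC and 6 of 9 in each of the remaining contrasts.

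**Figure D3:**
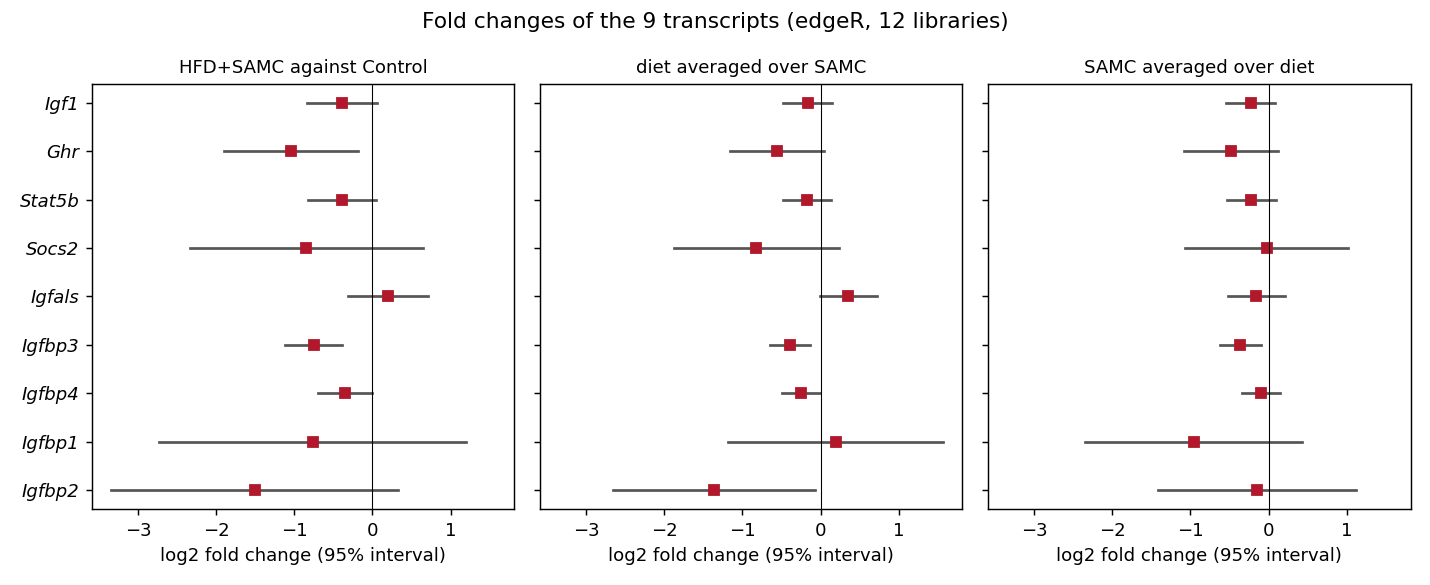
Log2 fold changes (squares) with 95% intervals (lines) of the 9 transcripts in HFD+SAMC against Control, for diet averaged over SAMC and for SAMC averaged over diet, from the edgeR fit over 12 libraries. No adjusted p was under 0.05, and Igfbp3 has an interval from -1.12 to -0.38 in the left panel.

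Igf1 encodes the growth factor that the liver releases into blood. It had 1059.6, 688 and 652 CPM in the HFD+SAMC libraries, against 1175, 1274 and 935 CPM in the HFD libraries. Control+SAMC libraries had 1078, 939 and 1218 CPM, and Control libraries 984, 1036 and 1132 CPM. Replicates 2 and 3 of HFD+SAMC were the lowest of all 12, while replicate 1 lay among the other groups. In HFD+SAMC against HFD the log2 fold change was -0.50 ± 0.21 (SE; adjusted p = 0.419), and it was -0.43 ± 0.21 (adjusted p = 0.486) in HFD+SAMC against Control+SAMC. The first became -0.22 without the 4 libraries low in Fga, which include HFD replicates 2 and 3. HFD against Control gave 0.10 ± 0.21 (adjusted p = 0.906), with a 95% interval from -0.35 to 0.55, and -0.18 without those libraries. The values of -0.22 and -0.18 have HFD replicate 4 as the only HFD library.

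Ghr encodes the growth hormone receptor. It had 384, 375 and 354 CPM in the HFD+SAMC libraries, 775, 477 and 317 CPM in the HFD libraries, 695, 536 and 417 CPM in the Control+SAMC libraries, and 399, 1205 and 686 CPM in the Control libraries. The 3 HFD+SAMC libraries were close together and below every Control and Control+SAMC library, but HFD replicate 4 was lower still. In HFD+SAMC against Control the log2 fold change was -1.04 ± 0.39 (adjusted p = 0.300), and for diet averaged over SAMC it was -0.56 ± 0.27 (adjusted p = 0.408). Control replicate 2, which had the highest Ghr of all, was also low in Fga. The first value was -0.56 without that library and -0.55 without the 4 low libraries.

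Stat5b encodes the transcription factor that relays the receptor's signal. It had 41.6, 44.0 and 44.4 CPM in the HFD+SAMC libraries, 47.2, 28.2 and 52.8 CPM in the HFD libraries, 32.9, 47.3 and 43.6 CPM in the Control+SAMC libraries, and 54.0, 59.7 and 56.7 CPM in the Control libraries. Control libraries were the 3 highest, though HFD replicate 4 came close to them, and the other 3 groups overlapped. The log2 fold change was -0.39 ± 0.20 (adjusted p = 0.450) in HFD+SAMC against Control, -0.41 ± 0.20 (adjusted p = 0.502) in HFD against Control and -0.46 ± 0.20 (adjusted p = 0.487) in Control+SAMC against Control. With library totals alone these became -0.11, -0.13 and -0.33. Without the 4 libraries low in Fga, HFD against Control was -0.07, a value set by HFD replicate 4 alone, the highest HFD library for Stat5b.

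Socs2 encodes an inhibitor that growth hormone induces and that marks the receptor for degradation. It had 61.1, 46.1 and 36.8 CPM in the HFD+SAMC libraries, 27.5, 34.5 and 60.8 CPM in the HFD libraries, 37.5, 39.6 and 136 CPM in the Control+SAMC libraries, and 166, 29.8 and 62.9 CPM in the Control libraries. A single library in each of the 2 normal diet groups stood far above the rest, and all 4 groups overlapped. Its log2 fold change was -1.08 ± 0.67 (adjusted p = 0.611) in HFD against Control and -0.82 ± 0.47 (adjusted p = 0.494) for diet averaged over SAMC. Without Control replicate 1, which had the highest value, they became -0.18 and -0.37.

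Igfals encodes the acid labile subunit, which stabilises the plasma complex of IGF1 and its binding protein. It had 329.8, 294 and 247 CPM in the HFD+SAMC libraries, 427, 412 and 229.9 CPM in the HFD libraries, 310.5, 220.4 and 219 CPM in the Control+SAMC libraries, and 231, 299 and 228 CPM in the Control libraries. HFD replicates 2 and 3 were the 2 highest of all 12 and HFD replicate 4 was among the lowest. Igfals had a log2 fold change of 0.49 ± 0.24 (adjusted p = 0.492) in HFD against Control and 0.36 ± 0.17 (adjusted p = 0.383) for diet averaged over SAMC. The 4 libraries low in Fga were the 2 highest of HFD and the highest of Control+SAMC and of Control. Without them, with HFD replicate 4 as the only HFD library, the 2 values became -0.0020 and 0.20, and with library totals alone 0.81 and 0.58.

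Igfbp3 encodes the main carrier of IGF1 in plasma. It had 28.9, 23.5 and 24.9 CPM in the HFD+SAMC libraries, 34.0, 41.7 and 34.1 CPM in the HFD libraries, 34.6, 44.1 and 33.5 CPM in the Control+SAMC libraries, and 34.3, 52.0 and 44.3 CPM in the Control libraries. Every HFD+SAMC library was below all 9 others, and the other 3 groups overlapped with each other. In the edgeR fit the log2 fold change was -0.75 ± 0.17 in HFD+SAMC against Control (95% interval -1.12 to -0.38, adjusted p = 0.102), a comparison within 1 set of libraries. It was -0.51 ± 0.17 in HFD+SAMC against HFD (adjusted p = 0.334) and -0.54 ± 0.17 in HFD+SAMC against Control+SAMC (adjusted p = 0.290), both across the sets. Averaged values were -0.39 ± 0.12 for diet (adjusted p = 0.185) and -0.36 ± 0.12 for SAMC (adjusted p = 0.249). The diet value was -0.16 with library totals alone, and the SAMC value -0.21 without the 4 libraries low in Fga.

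The difference of Igfbp3 between HFD+SAMC and Control passed the threshold in 2 alternatives, DESeq2 (adjusted p = 0.00807) and the edgeR fit without Control replicate 1 (log2 fold change -0.91, adjusted p = 0.0497). Both called more genes in this contrast, 448 with DESeq2 and 53 without Control replicate 1, against 28 in the main fit. With library totals alone the log2 fold change of Igfbp3 was -0.46, while the median of all genes moved to 0.27 on that scaling. In rat liver, Igfbp3 is known as a gene of the sinusoidal endothelium and Kupffer cells more than of hepatocytes. The 6 sinusoidal endothelial markers summed to 271 to 333 CPM in HFD+SAMC, 271 to 295 CPM in HFD, 233 to 344 CPM in Control+SAMC and 318 to 361 CPM in Control, and none was at 0. In HFD+SAMC against Control, 0 of these 6 markers passed the threshold, with a median log2 fold change of -0.17. For SAMC averaged over diet, 1 of the 6 (Clec4g, a lectin of these cells) fell, by 0.74 on the log2 scale (adjusted p = 0.0297). The median of the 6 in that contrast was -0.07, with 2 of 6 above 0. The 8 Kupffer cell markers summed to 543.5 to 642 CPM in HFD+SAMC, 622 to 756 CPM in HFD, 495 to 643 CPM in Control+SAMC and 403 to 633 CPM in Control. Their median log2 fold change was 0.15 in HFD+SAMC against Control, with 6 of 8 above 0, and -0.13 in HFD+SAMC against HFD, with 1 of 8 above 0, and 0 passed the threshold in either. Their part in the values of Igfbp3 was not tested.

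Igfbp4, a binding protein that restrains IGF action in tissue, had 1886, 1982 and 1796 CPM in the HFD+SAMC libraries and 1683, 1785 and 2065 CPM in the HFD libraries. It had 1775, 2262 and 2114 CPM in the Control+SAMC libraries and 2569, 2430 and 2240.5 CPM in the Control libraries. Control libraries were above every high fat diet library, and Control+SAMC overlapped with all groups. The log2 fold change was -0.35 ± 0.16 (adjusted p = 0.382) in HFD+SAMC against Control, -0.39 ± 0.16 (adjusted p = 0.407) in HFD against Control and -0.25 ± 0.11 (adjusted p = 0.344) for diet averaged over SAMC. With library totals alone these were -0.08, -0.10 and -0.04.

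Igfbp1 encodes a binding protein that rises in fasting. It had 11.3, 12.1 and 21.3 CPM in the HFD+SAMC libraries, 21.8, 8.14 and 160.3 CPM in the HFD libraries, 16.9, 39.8 and 28.9 CPM in the Control+SAMC libraries, and 26.7, 31.2 and 18.1 CPM in the Control libraries. HFD held both the lowest library, replicate 3, and the highest, replicate 4. The log2 fold change of -2.09 ± 0.90 in HFD+SAMC against HFD (adjusted p = 0.455) and of 1.32 ± 0.88 in HFD against Control (adjusted p = 0.639) rested on HFD replicate 4. Without that library they were -0.001 and -0.76, and without the 4 libraries low in Fga, which leaves replicate 4 as the only HFD library, -3.42 and 2.83.

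Igfbp2, a further binding protein that insulin and growth hormone hold down, had 8.06, 30.7 and 20.3 CPM in the HFD+SAMC libraries and 9.42, 17.1 and 56.3 CPM in the HFD libraries. It had 45.3, 126 and 20.4 CPM in the Control+SAMC libraries and 79.6, 50.5 and 37.7 CPM in the Control libraries. HFD+SAMC libraries were below every Control library, and the other groups overlapped. Log2 fold changes of Igfbp2 were -1.51 ± 0.82 (adjusted p = 0.486) in HFD+SAMC against Control, -1.69 ± 0.82 (adjusted p = 0.506) in HFD+SAMC against Control+SAMC and -1.36 ± 0.58 (adjusted p = 0.342) for diet averaged over SAMC. Without Control+SAMC replicate 2, the last 2 values were -0.74 and -0.88; that library had 126 CPM.

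**Figure D4:**
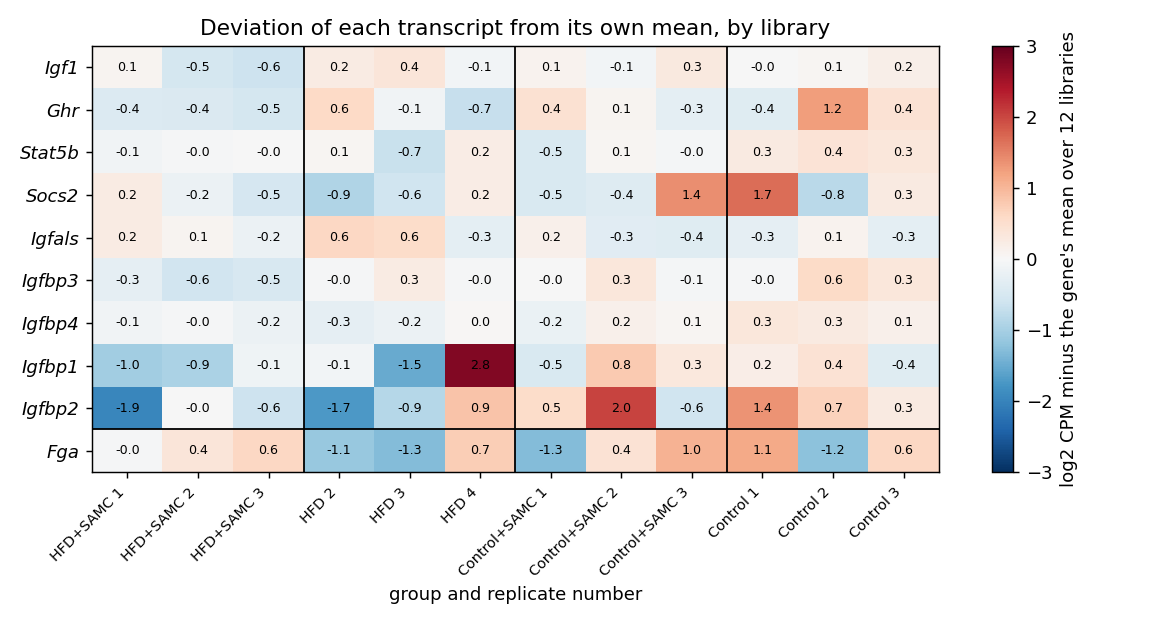
Log2 CPM of the 9 transcripts and of Fga in each of the 12 libraries, as the deviation from that gene's mean over all libraries (colour and printed value), with groups in the order HFD+SAMC, HFD, Control+SAMC and Control. The Igfbp3 row is below its mean in all 3 HFD+SAMC libraries, the Igfbp1 row peaks in HFD replicate 4, and the Fga row shows the 4 low libraries.

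Igfbp1 and Igfbp3 lie tail to tail on chromosome 14. In the deposited table, whose genome build is not given in the sources used here, Igfbp1 spans 87448716 to 87453783 on the plus strand and Igfbp3 spans 87457647 to 87465374 on the minus strand, with 3863 bp between them. None of the 9 genes overlapped another gene of the table. Igfbp1 is known for an insulin response element in its promoter, where FOXO factors bind. In the RefSeq promoters of build GRCr8, 8 of the 9 genes had an entry, and the 250 bases before each start were searched on both strands for the element's core, TGTTTTG or CAAAACA, and for a STAT5 element, TTCNNNGAA. The core was present in 2 of the 8, Igfbp1 and Igf1, and in 5.46% of 33469 rat promoters. The STAT5 letters were present in 0 of the 8 and in 7.67% of all promoters. The gene without an entry was Socs2, and bases farther from the starts were not searched. The count of 0 therefore does not show that the 9 genes lack STAT5 elements. The 2 promoters with the core are printed 5′ to 3′ on the strand of the gene, with its letters in capitals. Igfbp1 had the widest range of the 9 transcripts, which rested on HFD replicate 4. Igf1 encodes the ligand that the product of Igfbp1 binds. The match lies at positions -121 to -115 from the start in Igfbp1 (chr14:86261027-86261276, plus strand) and -67 to -61 in Igf1 (chr7:24172282-24172531, plus strand).
Igfbp1: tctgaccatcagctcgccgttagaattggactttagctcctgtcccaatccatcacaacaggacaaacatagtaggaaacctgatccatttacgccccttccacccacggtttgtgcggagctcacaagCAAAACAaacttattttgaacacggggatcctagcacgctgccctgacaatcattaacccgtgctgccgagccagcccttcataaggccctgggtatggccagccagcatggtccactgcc
Igf1: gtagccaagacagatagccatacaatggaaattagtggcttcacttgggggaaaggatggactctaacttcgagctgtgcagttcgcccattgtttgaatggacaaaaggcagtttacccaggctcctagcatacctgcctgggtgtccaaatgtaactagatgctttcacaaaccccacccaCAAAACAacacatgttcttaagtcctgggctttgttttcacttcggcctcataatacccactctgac

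Other genes of the axis were taken from lists of hormones and receptors, signal transducers, SOCS inhibitors, binding proteins, binding protein proteases, GH-responsive genes and insulin or fasting readouts. Of the 47 that were tested beside the 9, only Prlr passed the threshold, in 1 of 9 contrasts. Prlr encodes the prolactin receptor, a relative of the growth hormone receptor that is abundant in female rat liver. It had 331, 269 and 362 CPM in the HFD+SAMC libraries, against 666, 1404 and 932.5 CPM in the Control libraries, without overlap. This gave a log2 fold change of -1.64 ± 0.28 (adjusted p = 0.0474). It stayed past the threshold in 3 of 12 fits that left out 1 library. The adjusted p ran from 0.0176 to 0.195, and the call was lost without Control replicates 2 or 3, Control+SAMC replicates 1 or 2, HFD replicates 2 or 3, or any HFD+SAMC replicate. Of the 47 genes, 16 were above 0 in that contrast, with a median of -0.17.

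Among hormones and receptors, Igf2r, which clears IGF2, had 98.2, 126 and 98.9 CPM in HFD+SAMC, 71.5, 79.4 and 80.3 CPM in HFD, 91.6, 102 and 83.9 CPM in Control+SAMC, and 76.8, 72.9 and 61.4 CPM in Control. In CPM, both SAMC groups were above both groups without it in every library. This rests on TMM scaling, whose factors were 1.18 for HFD replicate 3 and 0.971 for Control+SAMC replicate 3. With library totals alone, HFD replicate 3 would lie above Control+SAMC replicate 3. The log2 fold change of Igf2r for SAMC averaged over diet was 0.44 ± 0.10 (adjusted p = 0.0922). The insulin receptor gene Insr gave -0.46 ± 0.17 (adjusted p = 0.373) in HFD against Control. In the signalling list 0 of 10 genes beside Stat5b passed, and the smallest p-values were those of Sh2b1 (0.29, adjusted p = 0.418) and Ptpn11 (0.25, adjusted p = 0.484) in HFD+SAMC against HFD and Stat5a (-0.31, adjusted p = 0.573) in Control+SAMC against Control. In the SOCS list 0 of 7 beside Socs2 passed. Socs6 gave -0.24 for diet averaged over SAMC (adjusted p = 0.261), Socs7 gave -0.37 in Control+SAMC against Control (adjusted p = 0.393) and Socs1, a gene of very low level, 0.95 in HFD+SAMC against Control+SAMC (adjusted p = 0.396).

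Of the 3 remaining binding proteins, 0 passed. Igfbp7 had 60.5, 66.3 and 64.1 CPM in HFD+SAMC, against 70.3, 107.8 and 82.8 CPM in HFD, with a log2 fold change of -0.45 ± 0.14 (adjusted p = 0.313) and no overlap. Igfbp6 gave 1.09 ± 0.56 for diet averaged over SAMC (adjusted p = 0.428) and Igfbp5 gave 1.00 ± 0.89 in HFD+SAMC against Control+SAMC (adjusted p = 0.751). Both are genes of very low level, with group means of 0.767 to 1.69 CPM for Igfbp6 and 0.455 to 0.914 CPM for Igfbp5. The value of Igfbp5 was -1.05 without HFD+SAMC replicate 3, the library with muscle transcripts. Of 4 proteases and inhibitors, 1 was tested, the stanniocalcin gene Stc2, with 2.42 ± 1.02 in Control+SAMC against Control (adjusted p = 0.476). Its level was lower still, with means of 0.274 CPM in Control+SAMC and 0.0474 CPM in Control.

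In rats the pattern of growth hormone pulses sets the sex-dependent cytochromes of the liver. Cyp2c12, the classical female-type gene, had 2561 to 4571 CPM over the 12 libraries and Cyp2c7 had 3662 to 7066 CPM. Male-type Cyp2c11 had at most 0.386 CPM, Cyp2c13 at most 2.47 CPM, and Cyp3a2, Obp3 and Hsd3b5 were at or near 0 throughout. Of the genes just named, the female-type ones were thus the abundant ones in every library of all 4 groups. Of 13 tested GH-responsive genes 0 passed in any contrast. Cyp4a2, a fatty acid hydroxylase, had 24.9, 51.6 and 21.5 CPM in HFD+SAMC, against 96.5, 65.8 and 106.9 CPM in Control. The log2 fold change was -1.46 ± 0.29 (adjusted p = 0.0740), with no overlap in CPM. The TMM factors of HFD+SAMC replicate 2 and Control replicate 2 were 1.09 and 0.795. With library totals alone, the first of these libraries would lie above the second for Cyp4a2. Onecut1, a hepatocyte transcription factor that growth hormone induces, had 286, 164 and 265 CPM in HFD+SAMC, against 632, 369 and 577 CPM in Control+SAMC, a log2 fold change of -1.14 ± 0.24 (adjusted p = 0.117) with no overlap. Cyp2a2, a male-type gene, had 0.960, 1.11 and 6.96 CPM in HFD, against 0.296, 0.454 and 0.266 CPM in Control+SAMC, a log2 fold change of 3.14 ± 0.78 (adjusted p = 0.122). Cyp4a2 and Cyp2a2 belong to families of similar genes, so their reads may be shared with relatives.

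Of the 9 insulin and fasting readouts tested, 0 passed. Pck1, a gluconeogenic enzyme that insulin represses, had 335, 337 and 397 CPM in HFD+SAMC, against 1071, 937 and 711 CPM in HFD, a log2 fold change of -1.35 ± 0.28 (adjusted p = 0.138) with no overlap. Ppargc1a, a coactivator of gluconeogenesis, gave -1.37 ± 0.36 in HFD against Control+SAMC (adjusted p = 0.135), and Irs2, an insulin receptor substrate, gave 0.97 ± 0.33 in HFD against Control (adjusted p = 0.319). The highest Pck1 library, HFD replicate 2, was not that with the highest Igfbp1, HFD replicate 4. Irs2 and Ppargc1a, however, were both raised in HFD by replicate 4. Without that library, Irs2 was 0.64 in HFD against Control and Ppargc1a was -1.71 in HFD against Control+SAMC. Whether Igfbp1 shares a cause with these readouts was not tested.

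The 8 hepatocyte markers were all below 0 in HFD+SAMC against Control, and their median was -0.90 on the log2 scale. All 8 were also below 0 in HFD against Control (median -0.63) and for diet averaged over SAMC (median -0.50). Not all members went the same way in these contrasts. Igfals was above 0 in all 3 (0.20, 0.49 and 0.36). Igf1 (0.10) and Igfbp1 (1.32, resting on HFD replicate 4) were above 0 in HFD against Control, and Igfbp1 (0.19) for averaged diet. The other members, among them Ghr, Stat5b, Socs2 and Igfbp4, were below 0. In these 3 contrasts 0 of the 8 passed the threshold. Among them Hnf4a, a regulator of hepatocyte genes, had 499.6, 649 and 529.8 CPM in HFD+SAMC, against 1047, 1029 and 1133 CPM in Control (-0.94 ± 0.17, adjusted p = 0.0536). The part of these markers in the values of the axis was not tested.

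For 6 of the 9 transcripts, other genes were ranked by the root mean square difference of their centred log2 CPM over the 12 libraries. Ghr was followed most closely by Napepld (0.17), Bcl6b (0.20) and Zfp354a (0.22), against its own SD of 0.57. Socs2 was followed by Gys2, the liver glycogen synthase gene (0.31), Sik2 (0.35) and Tmem30b (0.40), against an SD of 0.82. Igf1 was followed by Tgfbr1, Dnajc22 and Fgd4 (0.16 to 0.18, SD 0.30), and Igfals by Tmc3, Sec14l2 and Brd9 (0.13 to 0.15, SD 0.34). The nearest genes of Igfbp1 (Dnase2b, 0.67, SD 1.10) and Igfbp2 (Tgfb3, 0.76, SD 1.19) followed them less closely. These values describe the same libraries and carry no test.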

How the data were processed

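Total RNA from liver was depleted of ribosomal RNA and sequenced as paired reads of 150 bp, per the labels' protocols. Trimming used Trimmomatic 0.36, per the submitters' processing notes. Per the labels' protocols, HISAT2 alignments were turned by the authors into deposited counts per gene model with HTSeq. For genome build, annotation and strand setting, nothing is given in the sources used here. Except for RGD1562465, the deposited RPKM values matched the count divided by listed length and by library total to a relative 1e-06. RPKM served to compare levels between genes and to show overlaps of libraries without TMM scaling.

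Of 40154 genes, 14180 had no count, and filterByExpr kept 15916, with 99.96% of counts. All 12 libraries entered 1 quasi-likelihood fit (edgeR 4.0.16, R 4.3.3, TMM scaling, robust dispersion, 8 residual degrees of freedom). Tests were two-sided with Benjamini-Hochberg adjustment over all tested genes within each contrast. Averaged effects are means of the 2 differences concerned. Errors are SE, or SD over 3 libraries in the plots. Replicate pairs differed by more than sampling noise, so none was merged. The procedure was tested on simulated data.

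Members, lists and contrasts were chosen with earlier results of these data known. Named genes are the 9 members, listed genes past the threshold, and up to 3 others per list by smallest p. Genes followed for likeness were Igf1, Igfals, Igfbp1, Igfbp2 and members with an SD of at least 0.5 on the log2 scale. Alternatives were RLE size factors, library totals, no filter, DESeq2 1.42.0, 2 groups only, a replicate block, and each library left out. After the data were seen, 2 were added: without the 4 libraries low in Fga, and without HFD replicate 4 and HFD+SAMC replicate 3.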

Additional observations from a re-analysis of the deposited data

How the results depend on the processing

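Over 1593 alternative values of the 9 transcripts, 2 passed the threshold, both for Igfbp3 in HFD+SAMC against Control, and 96 changed sign. Precision is limited by 3 libraries per group and a biological coefficient of variation of 0.299. Library totals in place of TMM scaling moved the median of all genes by up to 0.29 (HFD against Control), so fold changes are read relative to it. The alternative fits to 2 groups only could not be made for averaged effects or the interaction. The causes were not tested.

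The number of genes past the threshold changed as follows. With DESeq2 it was 448 in HFD+SAMC against Control, 246 in HFD+SAMC against HFD, 272 in HFD+SAMC against Control+SAMC, 308 in HFD against Control, 550 in HFD against Control+SAMC, 219 in Control+SAMC against Control, 538 for averaged diet, 436 for averaged SAMC and 128 for the interaction. With library totals it was 185 in HFD+SAMC against Control, 5 in HFD+SAMC against Control+SAMC, 136 in HFD against Control, 127 in HFD against Control+SAMC and 573 for averaged diet. Without a filter it was 61 in HFD+SAMC against Control, 19 in HFD+SAMC against HFD, 21 in HFD+SAMC against Control+SAMC and 67 for averaged SAMC. With 2 groups only it was 23 in HFD+SAMC against HFD, 44 in HFD+SAMC against Control+SAMC, 4 in HFD against Control and 5 in Control+SAMC against Control.

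Deviations of same-numbered libraries had correlations from -0.221 to 0.248 over 15 pairs (median 0.0156). Libraries of other numbers had -0.353 to 0.314 over 39 pairs (median -0.00521). The labels do not say whether equal numbers mean paired samples, and these correlations cannot exclude it. With the number as a replicate block, which sets HFD replicate 4 aside because its number is its own, 2 genes passed in HFD+SAMC against Control+SAMC, 6 in Control+SAMC against Control, 10 for averaged SAMC and 9 for the interaction. Under the block Igfbp1 was 0.27 in HFD+SAMC against HFD and -1.01 in HFD against Control, and Prlr in HFD+SAMC against Control was -1.59 (adjusted p = 0.0747).

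Without the 4 libraries low in Fga, HFD is replicate 4 alone, assumed to vary like the other groups. Counts were then 0 in HFD+SAMC against HFD, 25 in HFD+SAMC against Control+SAMC, 3 in HFD against Control, 31 in HFD against Control+SAMC, 31 for averaged diet and 2 for the interaction. In HFD against Control, Igf1 was -0.18 and Igfals -0.0020, set by that library. Without HFD replicate 4 and HFD+SAMC replicate 3, counts were 13 in HFD+SAMC against Control, 1 in HFD+SAMC against HFD, 0 in HFD+SAMC against Control+SAMC, 10 in Control+SAMC against Control, 36 for averaged diet, 9 for averaged SAMC and 5 for the interaction. Igfbp1 in HFD against Control was then -0.76 and Igfbp5 in HFD+SAMC against Control+SAMC -1.05.

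Leaving out 1 library at a time gave 7 to 53 genes in HFD+SAMC against Control, 1 to 27 in HFD+SAMC against HFD, 1 to 45 in HFD+SAMC against Control+SAMC, 4 to 53 in HFD against Control, 5 to 140 in HFD against Control+SAMC, 3 to 23 in Control+SAMC against Control, 30 to 130 for averaged diet, 13 to 68 for averaged SAMC and 7 to 19 for the interaction. Igfbp1 in HFD against Control then ran from -0.76 to 1.84, and Igfbp5 in HFD+SAMC against Control+SAMC from -1.05 to 1.48.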

Other observations

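Members of the axis were also compared with each other over the 12 libraries, as log2 CPM. Of 36 pairs, 7 had an unadjusted permutation p under 0.05 for Pearson's r and 0 passed after Benjamini-Hochberg adjustment over the 36. Igfbp2 and Igfbp4 had the largest r, 0.707 (permutation p = 0.011, adjusted p = 0.134), with a rho of 0.706 (permutation p = 0.0132, adjusted p = 0.126). It was 0.745 without the 2 libraries farthest from the median of Igfbp2, 0.85 within the 6 HFD+SAMC and Control libraries and 0.725 within the 6 HFD and Control+SAMC libraries. For Igfbp4 and Stat5b, r was 0.692 (permutation p = 0.0105, adjusted p = 0.134) and Spearman's rho was 0.713 (permutation p = 0.011, adjusted p = 0.126). Without the 2 libraries farthest from the median of Igfbp4, r was 0.821, and it was 0.87 within the 6 HFD+SAMC and Control libraries and 0.513 within the 6 HFD and Control+SAMC libraries. For Ghr and Igfbp3, r was 0.698 (permutation p = 0.0111, adjusted p = 0.134) and rho was 0.685 (permutation p = 0.0168, adjusted p = 0.126). It was 0.636 without the 2 libraries farthest in Ghr, 0.918 within the HFD+SAMC and Control libraries and 0.0147 within the HFD and Control+SAMC libraries, so the relation did not hold within both sets. Group means were left in and values were permuted over all 12 libraries, so r includes differences between groups. The 5 transcripts of these pairs are those without overlap in CPM between HFD+SAMC and Control. Thus r within the HFD+SAMC and Control libraries holds that group difference and does not show variation together inside a group. All points share their libraries and scaling.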
